A study of Homo sapiens with 5 samples.

Results

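The genes described here are 33 members of the Fanconi anaemia pathway and of homologous recombination, listed by name with earlier results of these data known. A member was analysed where a probe set annotated with exactly 1 gene symbol was listed in both value tables of the series, and the brightest such probe set stood for the gene. This left 27 of the 33, among 17651 genes measured in both tables, and each of the 27 was read by a single probe set. RAD51D was measured only beside the exposed cultures and FAN1 only beside the soft agar clone. FANCA, FANCD2, BRCA2 and RBBP8 were not analysed here.

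RNA came from MCF12A, an established line of non-tumorigenic human breast epithelial cells grown as monolayers in medium with horse serum, epidermal growth factor, hydrocortisone, insulin and cholera toxin, which all groups shared. Affymetrix Gene ST arrays were run on cells kept for 4 weeks in 2.5% ethanol, on cells kept for 4 weeks in 1% acetaldehyde and on untreated cells, the control of both. A second pair of arrays came from 1 anchorage-independent clone, isolated from soft agar after 4 weeks of ethanol and grown again as a monolayer, and from its own control. The labels give the clone's ethanol as 2.5%, while the series' design text gives it in mM and the protocol mentions further ethanol after isolation. The clone's control is labelled as unexposed but also carries a soft agar tag. The clone stands for 1 isolate, so exposure, growth in soft agar and the isolate's own state cannot be told apart.

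Each group had 1 array. No spread between cultures could be measured, no test was possible, and every difference below is between 2 arrays, with the number of arrays as the limit of its precision. Values are the deposited intensities on a linear scale, and a log2 difference of 1 is 2-fold. A floor, the median of all values of a table, marked dim probe sets: 70.2 for the 3 exposure arrays and 92.0 for the clone and its control. It is not a measured background. For each comparison, counts over all measured genes are given first and counts past the floor after them.

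The Fanconi pathway repairs DNA crosslinks between strands, such as those that aldehydes can form. A core complex with the ligase FANCL and the ubiquitin-conjugating enzyme UBE2T marks the FANCD2-FANCI clamp, nucleases held by SLX4 then unhook the crosslink, and the resulting break is mended by homologous recombination. In that process MRE11, RAD50 and NBN start to trim the ends, BRCA1, PALB2 and BRCA2 prepare the strand that searches for a matching copy, a family that includes RAD51C and XRCC2 assists that search, and motor proteins such as RAD54L and BLM act on the joined molecules. Many of these genes are transcribed mainly in cells that are preparing for or copying DNA.

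The 3 exposure arrays had median intensities of 70.2 (ethanol), 70.6 (acetaldehyde) and 69.98 (control), and the clone and its control had 89.9 and 94.0. Many probe sets carried one value on several arrays, equal within 1e-06 on the log2 scale. Ethanol matched the control in this way for 45.9% of 17958 genes and acetaldehyde for 51.8%. Among the 27 members 10 were the same on all 3 arrays, and a further 4 matched between acetaldehyde and control. No member was equal in the clone and its control, and 130 of 18417 genes were. What gave the equal values is not known, so they cannot be read as unchanged transcripts. All 6 measured breast epithelial markers, of 8 listed, reached the floor in ethanol, acetaldehyde, the untreated control and the clone's control, and 4 did in the clone. In ethanol 3 of the 6 were 2-fold lower than in the control and 1 was 2-fold higher, with summed intensities of 8009 and 10851, and the adhesion gene CDH1 had 117 against 1114. In acetaldehyde none was 2-fold apart, and the sum was 11708.5. In the clone 4 of 6 were 2-fold lower than in its control, with sums of 9963 and 22666, and CDH1 had 43.6 against 920. All 3 endothelial markers were under the floor in every array. Of 6 fibroblast markers, 4 were at or over it in ethanol and 4 in acetaldehyde against 3 in the untreated control, with summed intensities of 484, 486 and 411. In the clone 4 were, against 3 in its control, with sums of 1581 and 675. The part of these markers in the differences below was not tested.

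**Figure D1:**
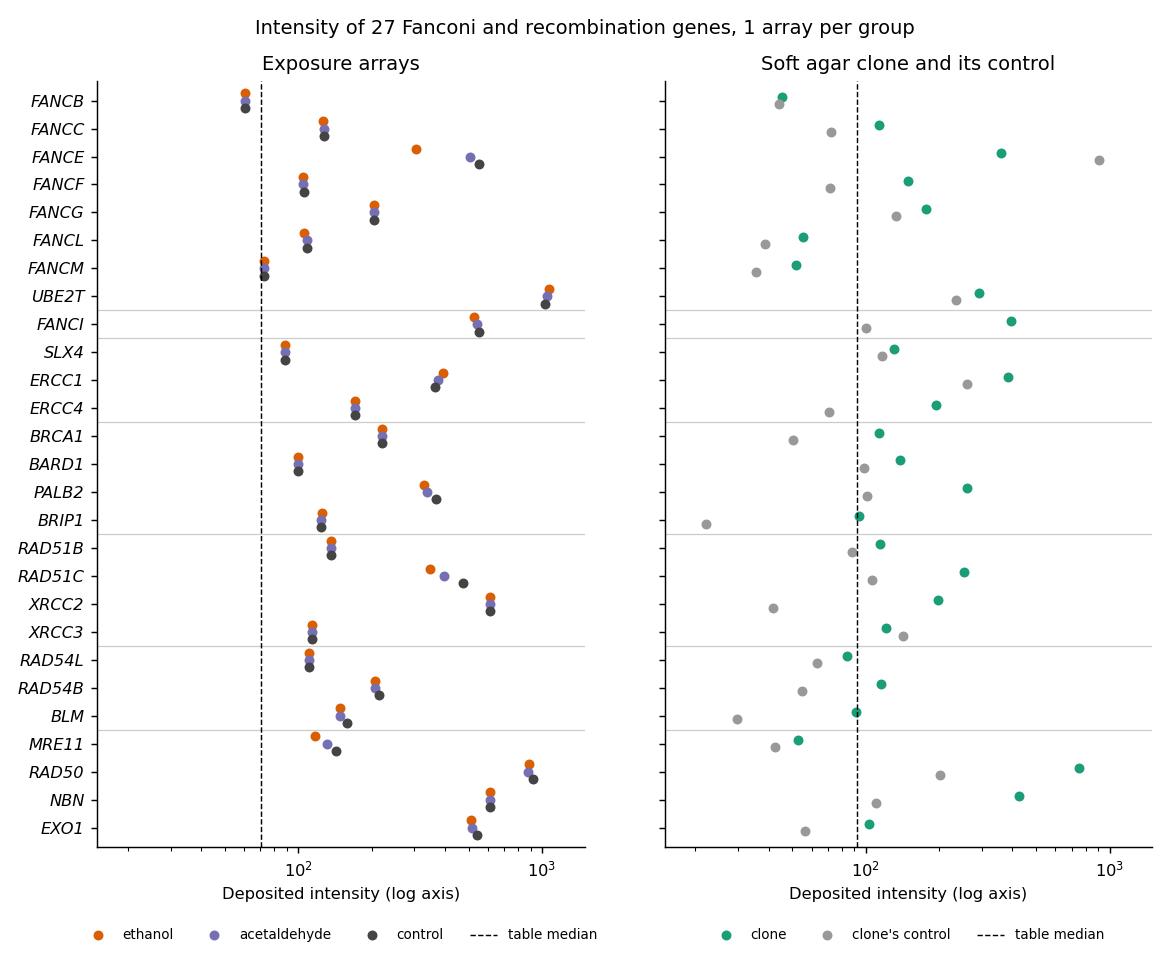
Deposited intensity (log axis) of the 27 members in ethanol, acetaldehyde and control (left) and in the clone and its control (right), with 1 point per array, the table median as a dashed line and grey lines between roles. The exposure arrays nearly coincide for most members and part for FANCE and RAD51C, whereas the clone lies above its control for 25 of 27 members.

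The first question was whether 4 weeks of ethanol shifted the repair genes. They stood close to the control, apart from FANCE. None of the 27 members was 2-fold higher or lower, where 1.69% of 17958 genes were 2-fold higher and 1.55% lower. Past the floor the counts were again 0 and 0 of 26, beside 2.63% and 2.44% of all genes, with FANCB under the floor in all 3 arrays and FANCM just over it at 72.2. Of the 26, 14 lay below the control and 3 above it, and 9 were equal, while 35.1% of all genes past the floor lay below, 34.2% above and 30.7% level. Their median log2 difference was -0.00, the value for all genes was 0.00, and most of these shifts were under 0.1.

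FANCE, which joins the core complex to FANCD2, had the largest difference of the members in ethanol. Its intensity was 306 in ethanol and 505 in acetaldehyde, against 552 in the control. The ethanol array was thus low, with a log2 difference of -0.85, and acetaldehyde was close to control at -0.13. FANCE was the only member past 1.5-fold in ethanol, where 5.11% of genes were lower by that fold, and 3.20% of genes past the floor were as low or lower. The rest of the core complex lay between -0.04 and 0.06, with FANCB, FANCG and FANCM at the same value in all 3 arrays.

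FANCI, the partner of FANCD2 in the clamp, had intensities of 527 in ethanol and 541 in acetaldehyde, against 553 in the control. BRCA1 had 220.4 in ethanol and 220.5 in acetaldehyde, against 220.5 in the control. PALB2, the bridge from BRCA1 to BRCA2, had 327 in ethanol and 338 in acetaldehyde, against 366 in the control. These are shifts of at most 0.16 on the log2 scale, all at or below the control. RAD51C, which assists strand exchange, went further, with 348 in ethanol and 396 in acetaldehyde, against 472 in the control. Its log2 differences were -0.44 and -0.25, so both exposed arrays were low and ethanol was the lower. The nuclease gene MRE11 had the same order, with 118 in ethanol and 132 in acetaldehyde, against 143 in the control.

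In acetaldehyde, the aldehyde whose damage the Fanconi pathway is known to repair, the members differed even less. None of 27 was 2-fold higher or lower, beside 0.652% and 0.0334% of all genes, and past the floor the counts were 0 and 0 of 26, beside 1.03% and 0.0536%. All log2 differences lay between -0.25, for RAD51C, and 0.03. Of the 26, 11 were below the control, 2 above it and 13 equal, whereas 31.9% of all genes were below, 30.2% above and 37.9% equal. Because the origin of the equal values is not known, they do not show that exposure left those genes unchanged. XRCC2, RAD54B, BLM and FANCF had the same value in ethanol and in acetaldehyde and a slightly higher one in the control. For BLM, a helicase of the late steps, that was 149 in both exposed arrays and 159 in the control. Both comparisons use the same control array, so their common direction is not independent.

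Acetaldehyde was also set against ethanol, at doses and agents that differ. None of the 27 members was 2-fold apart, beside 1.19% of all genes higher and 0.34% lower in acetaldehyde. Past the floor the counts were again 0 and 0 of 26, beside 1.85% and 0.526%. At 1.5-fold only FANCE of the 26 was higher in acetaldehyde, with a log2 difference of 0.73, beside 3.78% of all genes. The other members lay between -0.07 and 0.19.

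**Figure D2:**
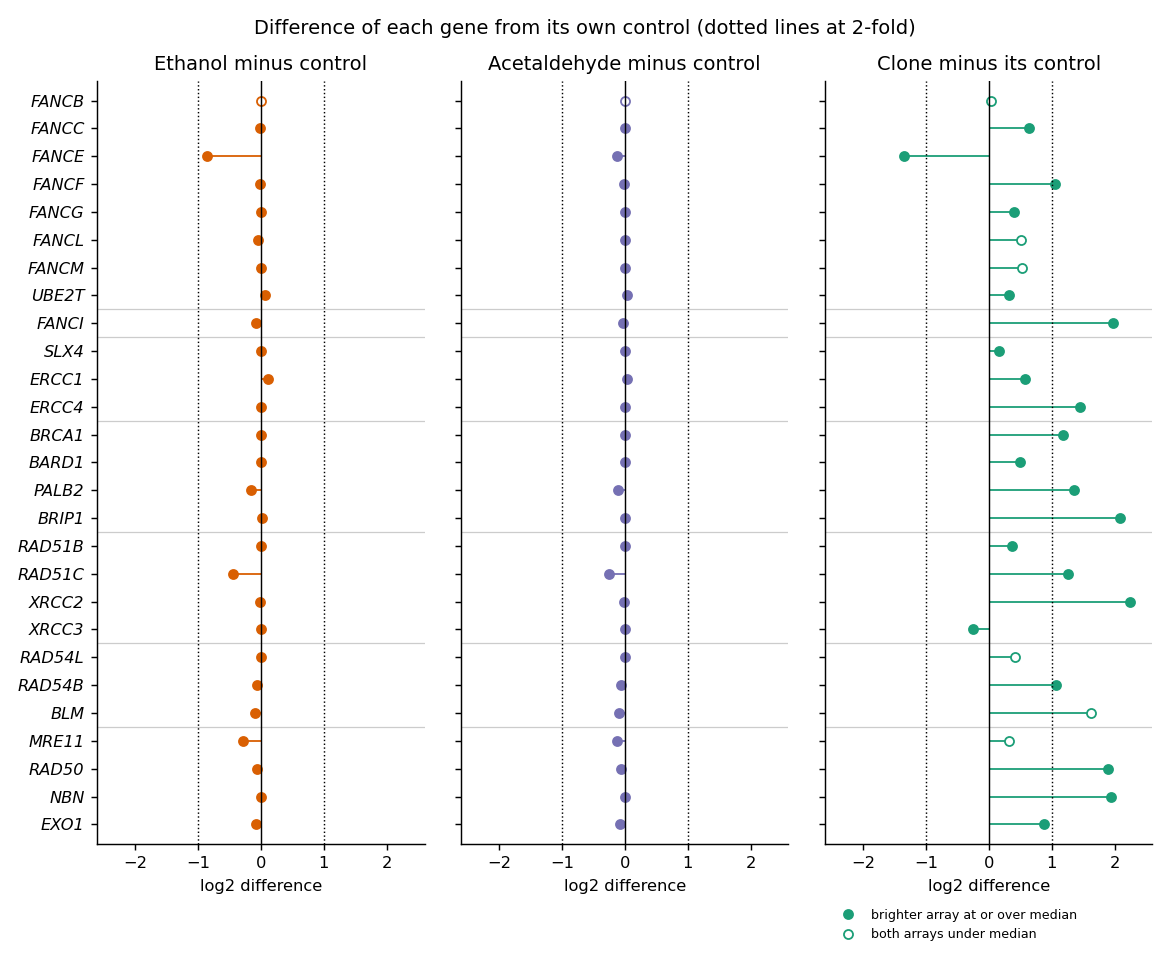
Log2 difference of each member from its own control in ethanol, acetaldehyde and the clone, with filled points where the brighter array reached the table median, open points where neither did, and dotted lines at 2-fold. Members lie at or near 0 in the first panels except FANCE at -0.85 in ethanol, and in the clone 12 of 27 lie past 2-fold upward and FANCE past 2-fold downward.

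The soft agar clone was then compared with its own control. Most of the members were brighter in the clone, and FANCE was again dimmer. At 2-fold, 12 of the 27 members were higher and 1 was lower, beside 10.5% and 4.26% of 18417 genes. The median log2 difference of the members was 0.64 and that of all genes -0.14. In all, 25 of 27 members lay above the control, and 40.5% of all genes did. Past the floor 11 of 21 were higher and 1 lower, beside 14.7% and 5.83% of 12262 genes, with a member median of 1.06 and a median of all genes of -0.02.

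Dim controls weigh on that last count. Of the 21 members past the floor, 12 reached it in both arrays and 9 only in the clone, so these 9 could pass only by being higher there. BRIP1 was just inside the floor at 93.7 in the clone, and BLM just outside it at 91.6 in the clone and 29.6 in the control. With values under the floor raised to it, 7 of 21 members were 2-fold higher and 1 lower, beside 12% and 4.98% of all genes. With the floor set on the mean of both arrays, a filter that does not favour either, 7 of 15 were higher and 1 lower, beside 13.8% and 5.65%. With a floor of 2 times the table median, 7 of 10 were higher and 1 lower, beside 17.4% and 7.22%. That filter again keeps a gene by its brighter array. Of the 7, only RAD50 reached it in the control, so the others could pass only by being higher in the clone.

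In the core complex the clone was mixed. FANCE had an intensity of 359 in the clone and 908 in its control, a log2 difference of -1.34 that 3.34% of genes past the floor matched or exceeded downward. Both arrays were well over the floor. FANCF, the adaptor that holds the complex together, had 149 in the clone against 71.7 in the control, a log2 difference of 1.06 and at least 1.62-fold over the floor. The other 6 members of the complex and its E2 enzyme lay between 0.03 and 0.64, of which FANCB, FANCL and FANCM were under the floor in both arrays. UBE2T was at 291 and 234. FANCE thus stood apart from the subunits it works with. It was low in the ethanol culture, though by less than 2-fold, and in the clone, which itself came from ethanol-exposed cells. The share of all genes that were low in both was not counted.

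FANCI was among the members furthest above control. It had an intensity of 396 in the clone and 101 in its control, which is 3.93-fold higher. Of the crosslink nucleases, ERCC4, the catalytic subunit of a structure-specific nuclease, had 194 in the clone and 71.1 in the control, at least 2.11-fold higher. Its partner ERCC1 had 385 and 259, a log2 difference of 0.57, and the scaffold SLX4 had 0.16. FAN1, a crosslink nuclease measured only here, had 120.4 in the clone and 76.7 in the control.

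All 4 measured genes of the BRCA1 axis lay above the control, and 3 of them past 2-fold. PALB2 had 259 in the clone and 102 in the control, 2.55-fold higher. BRCA1, a ubiquitin ligase that directs breaks to recombination, had 114 and 50.2, a log2 difference of 1.18. BRIP1, a helicase that binds BRCA1, had 93.7 and 22.1, a log2 difference of 2.08. The last 2 controls lay under the floor, so the folds over it are only at least 1.24 and at least 1.02. BARD1, the partner of BRCA1 in the ligase, had a log2 difference of 0.50.

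The genes that assist strand exchange divided. XRCC2 had 197 in the clone and 41.9 in the control, a log2 difference of 2.24 but, with the control under the floor, known only as at least 2.15-fold higher. RAD51C had 254 in the clone and 107 in the control, 2.38-fold higher. RAD51B, at 0.38, and XRCC3, at -0.24, did not reach 1.5-fold. XRCC2 and RAD51B work in a complex with RAD51C and RAD51D, and XRCC3 pairs with RAD51C, so partners of 1 complex differed in size. RAD51D had 97.8 in ethanol, in acetaldehyde and in the untreated control. Of the late motors, RAD54B had a log2 difference of 1.07, at 115 in the clone and 54.7 in the control, which is at least 1.25-fold over the floor, and RAD54L had 0.42.

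Of the end resection genes, RAD50, the ATPase that tethers broken ends, had 752 in the clone and 202 in its control, 3.72-fold higher. NBN, the third subunit of the same complex, had 426 and 111, 3.85-fold higher. Both lay over the floor in both arrays. Their nuclease partner MRE11 had only 52.8 and 42.4, both under the floor, with a log2 difference of 0.31. EXO1, an exonuclease that extends resection, had 103 and 56.4, a log2 difference of 0.87. The members that stood at least 2-fold higher with both arrays over the floor were therefore FANCI, PALB2, RAD51C, RAD50 and NBN. Of their controls only that of RAD50 was well over the floor of 92.0, and the others lay close to it, between 101 and 111. The share of all genes that were 2-fold higher with both arrays over the floor was not counted.

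Related genes, from lists written with earlier results of these data known, were counted in the clone in the same way, beside the 10.5% of all genes that were 2-fold higher, 14.7% past the floor and 12% with dim values raised to it. Of 42 other genes of the Fanconi and recombination pathways 9 were higher and 0 lower, and the list median was 0.41 on the log2 scale. Past the floor 7 of 33 were higher, and with dim values raised 4 of 33, or 12.1%, which is close to the share of all genes. The translesion polymerase gene REV3L and the deubiquitinase gene BRCC3 were at least 3.79-fold and at least 2.81-fold higher, over controls under the floor. The helicase gene MCM8 was 3.58-fold higher with both arrays over the floor. The resolvase gene GEN1 had 118.5 in the clone and 16.3 in the control, which is only at least 1.29-fold over the floor.

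The checkpoint and damage signalling list counted 8 of 18 higher and 0 lower, and its median was 0.81. Past the floor 7 of 14 were higher, and with dim values raised 5 of 14. The damage kinase gene ATR was at least 2.92-fold higher over a control under the floor. ATM, the kinase that responds to breaks, was 3.68-fold higher, and the scaffold genes TOPBP1 and RIF1 had log2 differences of 1.56 and 1.55, with both arrays over the floor. Of 9 end joining genes, which serve another pathway of break repair, 2 were higher and 0 lower. Past the floor that was 2 of 8, and with dim values raised 1 of 8, or 12.5%. PRKDC, the kinase of that pathway, was 2.93-fold higher, and XRCC4, a ligase cofactor, was at least 1.74-fold higher over a dim control.

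Proliferation genes were also higher in the clone. Of the S phase and mitosis markers 13 of 26 were 2-fold higher, beside the 10.5% of all genes, and 0 were lower, with a median of 1.01 on the log2 scale against -0.14 for all genes. All 26 were past the floor, where 14.7% of all genes were 2-fold higher and the median of all genes was -0.02. With dim values raised 12 of 26 were higher, beside 12% of all genes. TYMS, which makes thymidylate for replication, was at least 7.78-fold higher, and MKI67, a marker of cycling cells, at least 4.3-fold, over controls under the floor. The replicative helicase gene MCM3 was 4.69-fold higher with both arrays over the floor. The origin licensing gene CDC6 had 126 in the clone and 35.6 in the control, which is only at least 1.37-fold over the floor. In ethanol 1 of 25 was 2-fold higher, TYMS at 1.03, beside 1.69% of all genes and 2.63% of those past the floor. Of the 25, 18 lay above the control, beside 26.5% of all genes and 34.2% of those past the floor. The median of the 25 was 0.09. In acetaldehyde none was 2-fold apart and the median was 0.00. How far the repair genes follow the share of cycling cells was not tested, and in bulk RNA more cycling cells and more RNA per cell cannot be told apart.

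**Figure D3:**
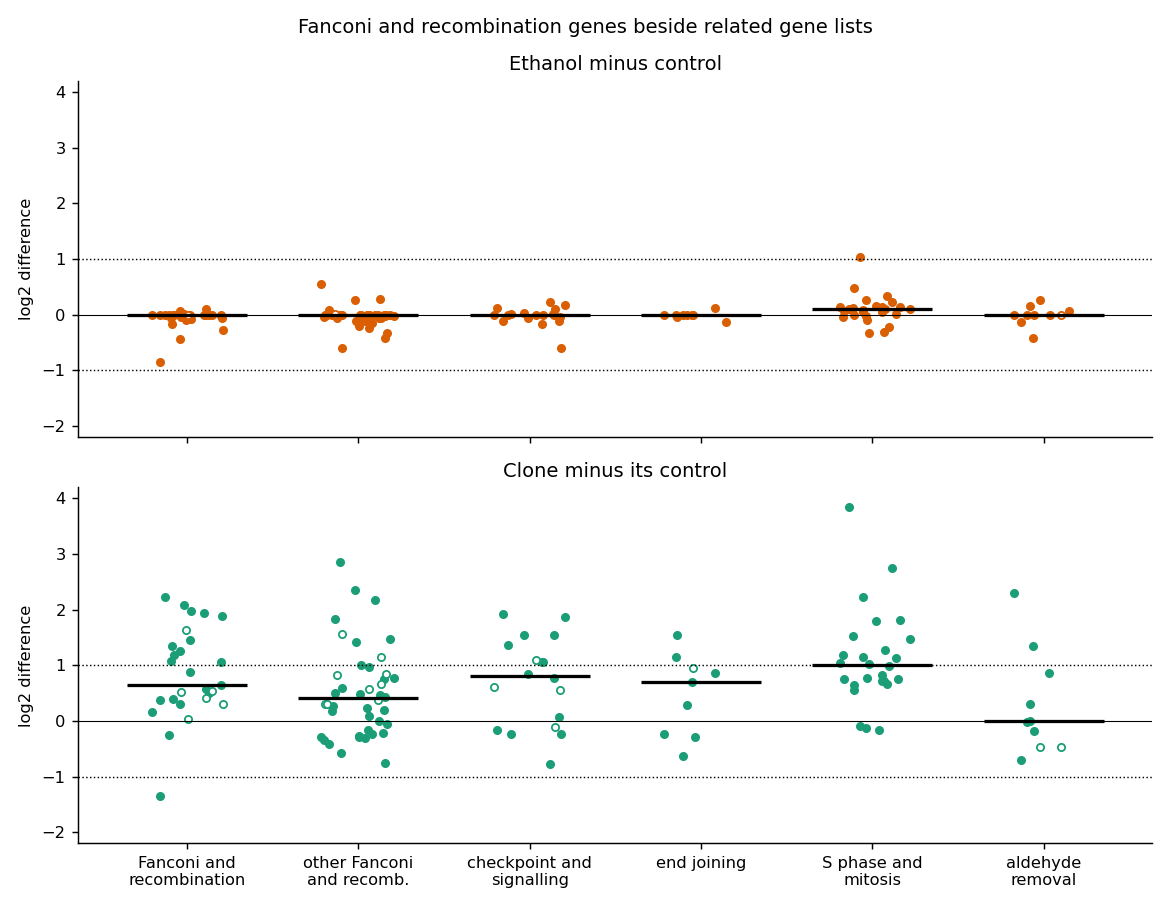
Log2 difference in ethanol (top) and in the clone (bottom) for the members and the 5 related lists, with 1 point per gene, filled where the brighter array reached the table median, and the median of each list as a black bar. In ethanol all list medians lie at or below 0.09, and in the clone the medians are 0.64 for the members and 1.01 for the S phase and mitosis markers.

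Genes of aldehyde removal, which lies upstream of the crosslinks, were within 2-fold of control in the exposures, and many held equal values. ALDH2, the mitochondrial enzyme that clears acetaldehyde, had 76.5 in ethanol, in acetaldehyde and in the control. ADH5, which clears formaldehyde, had 215 in ethanol and 204 in acetaldehyde, against 204 in the control. Of 10 such genes none was 2-fold from control in either exposure, where 1.69% of all genes were higher in ethanol and 0.652% in acetaldehyde. In ethanol 3 of the 10 lay above the control, 2 below it and 5 were equal, and in acetaldehyde 2, 2 and 6. The equal values cannot be read as unchanged transcripts. The furthest from control was ALDH1A3, with log2 differences of -0.41 in ethanol and -0.21 in acetaldehyde. In the clone 2 of 10 were higher, beside 10.5% of all genes, and 2 of 8 past the floor, beside 14.7%, while the median of the 10 was -0.01. They were ALDH1B1, a mitochondrial aldehyde dehydrogenase gene, at a log2 difference of 2.30, and ADH5 at 1.36, and ALDH2 had -0.47 with both arrays under the floor.

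The clone comparison varied with the span of the gene. The 12251 genes past the floor with a RefSeq record were put into 4 classes of equal number by span in GRCh38.p14. Of the class with the longest span 24.4% were 2-fold higher, and of the shortest 5.06%. The class medians were 0.32 and -0.29, and Spearman's rho between span and difference was 0.29 across genes, which share these 2 arrays. Members are long, with a median span of 43.0 kb against 25.4 kb for all genes, and rho among 21 members was 0.35. Within the longest class all 8 members lay above the class median, and in the next 7 of 8 did. In the class below that 1 of 3 did, with a member median of -0.24, and in the shortest 2 of 2. With each gene centred on the median of its class, 9 of 21 members were 2-fold higher and 1 lower, beside 12.9% and 6.46% of all genes, and their median was 0.75. Of the 21 members, 9 reached the floor only in the clone, so they could enter a class only by being higher there. All of those but FANCF lie in the longest class or the next, so the class counts are not free of that selection. FANCE, the gene that was lower, spans 14.8 kb. FANCF spans 3.29 kb and was higher. Whether span had a part in the members' differences was not tested.

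**Figure D4:**
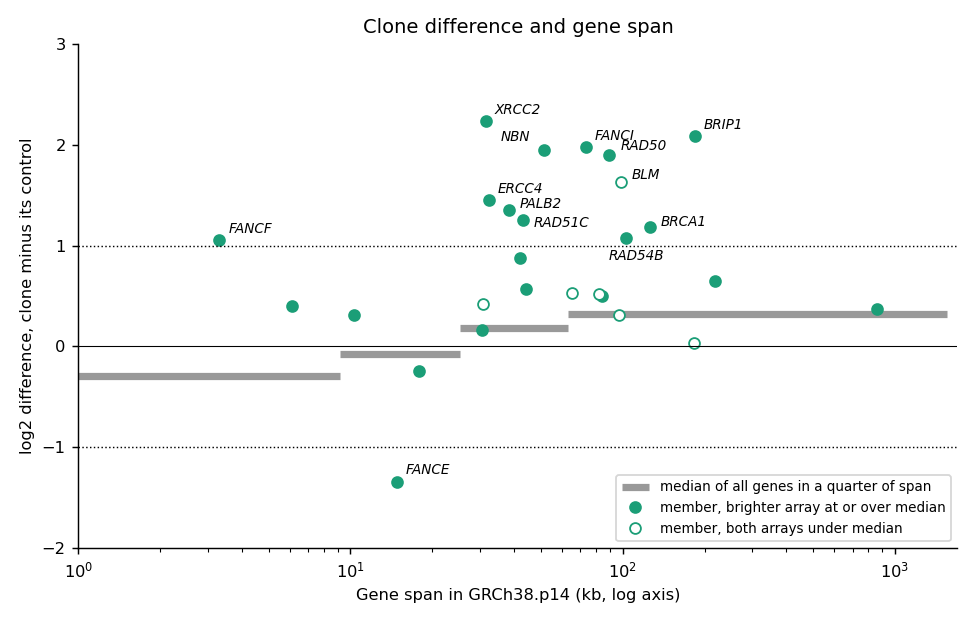
Log2 difference between the clone and its control against the span of the gene in kb (log axis), with members as points, filled where the brighter array reached the table median, and the median of all genes of a span class as a grey bar. Class medians run between -0.29 and 0.32, so any member past 2-fold upward lies above the bar of its class by definition.

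The level of the clone's control is part of that comparison. Within each array, the members' median percentile among all genes was 62.0 in ethanol, 61.3 in acetaldehyde and 61.8 in the control. It was 49.7 in the clone and 32.1 in the clone's control. Of 27 members, 24 ranked lower in the clone's control than in the untreated control, and 24 also ranked lower in the clone than in that control. The share of all genes that ranked lower was not counted. The 25 S phase and mitosis markers measured in both tables had medians of 76.3 in the clone, 58.3 in the clone's control and 87.3 in the untreated control. In the same order, the other Fanconi and recombination genes had 58.8, 49.5 and 61.1, and the checkpoint list 65.6, 49.0 and 70.8. End joining genes had 66.7, 64.9 and 68.0. Aldehyde removal genes went the other way, with 80.8, 76.5 and 73.3. The tables come from different array designs and were normalised separately, so array design, processing and culture cannot be told apart in ranks set across them.

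Promoter windows are shown for the members past 2-fold and past the floor in the clone whose RefSeq window overlapped no other gene record, so that FANCE can be read beside members that moved the other way. RefSeq windows of GRCh38.p14 run over 300 bases, 250 before and 50 after the gene start, and are printed 5′ to 3′ on the gene's strand. Of the 27 members 24 had an entry. Capitals mark the motifs searched on both strands: E2F (TTTGGCGC, TTTCCCGC, TTTCGCGC or TTTGCCGC), the cell cycle element CHR (TTTGAA or TTCGAA), the CCAAT box (CCAAT) and ETS (CCGGAAGT), none of which contains another.
XRCC2 chr7:152676092-152676391 (-): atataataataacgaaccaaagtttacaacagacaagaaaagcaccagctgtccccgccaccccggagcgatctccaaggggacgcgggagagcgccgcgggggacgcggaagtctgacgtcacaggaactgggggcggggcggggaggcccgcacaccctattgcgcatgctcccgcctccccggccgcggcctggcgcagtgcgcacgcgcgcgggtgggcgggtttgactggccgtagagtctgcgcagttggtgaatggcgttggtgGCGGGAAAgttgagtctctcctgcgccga
BRIP1 chr17:61863479-61863778 (-): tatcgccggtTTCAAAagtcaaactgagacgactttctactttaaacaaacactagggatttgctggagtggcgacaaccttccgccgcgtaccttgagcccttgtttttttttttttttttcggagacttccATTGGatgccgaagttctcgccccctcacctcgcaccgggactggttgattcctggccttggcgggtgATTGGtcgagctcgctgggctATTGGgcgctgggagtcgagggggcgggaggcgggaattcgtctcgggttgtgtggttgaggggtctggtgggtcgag
RAD51C chr17:58692323-58692622 (+): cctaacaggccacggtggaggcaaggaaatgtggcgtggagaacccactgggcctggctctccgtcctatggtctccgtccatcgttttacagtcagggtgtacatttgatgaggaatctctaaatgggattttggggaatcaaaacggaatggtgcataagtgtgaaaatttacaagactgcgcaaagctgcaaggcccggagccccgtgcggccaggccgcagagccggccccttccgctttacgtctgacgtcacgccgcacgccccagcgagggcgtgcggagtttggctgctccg
FANCE chr6:35452088-35452387 (+): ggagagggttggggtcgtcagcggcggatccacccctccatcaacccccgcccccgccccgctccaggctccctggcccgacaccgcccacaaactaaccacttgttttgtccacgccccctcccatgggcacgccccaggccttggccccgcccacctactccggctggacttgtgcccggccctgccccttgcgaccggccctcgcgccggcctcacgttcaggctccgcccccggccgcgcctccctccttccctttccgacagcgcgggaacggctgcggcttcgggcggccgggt

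XRCC2 held 1 E2F match, with its first base at position 22 from the gene start, and 0 of the other motifs. BRIP1 held 1 CHR match and 3 CCAAT boxes, with first bases at -117, -49 and -28. RAD51C and FANCE held none of the 4 motifs, so the windows of a gene that was higher and of one that was lower are alike in this. Over all 24 members, E2F letters were found in 3, FANCC, XRCC2 and EXO1, or 12.5%, against 3.33% of 27305 promoters. ETS letters were found in 3, PALB2, MRE11 and RAD50, or 12.5% against 4.44%. The CCAAT box was found in 37.5% of members and 35.7% of promoters, and CHR in 12.5% and 16.6%. A match of letters is a description and says nothing of binding.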

How the data were processed

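Intensity was measured on 5 Affymetrix human Gene ST arrays, 1 per group. The authors deposited intensity values made with RMA, per the submitters' processing notes, in a version not given in the sources used here, a method that usually adjusts background, sets arrays to one distribution and combines probes. The 2 tables come from different array designs, which the label protocol ties to other exposure times than the sample labels do, and were treated as normalised separately. Probe sets were named through a platform annotation, 19181 with exactly 1 symbol in the exposure table and 19460 in the clone's, 19143 and 19429 of them matched to RefSeq records by gene ID. Several-symbol and unlisted probe sets were left out.

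Log2 differences were taken within a table with Python 3.11.15 and pandas 2.3.3, and counted at 2-fold over all genes and over genes whose brighter array reached the table median. No test was run. The counting was tested on simulated data. A member is described with its array values where it was 2-fold from its control, and FANCI, BRCA1 and PALB2 in any case. Up to 4 genes of each related list are named by size, with ALDH2 and ADH5. Members and lists were chosen with earlier results of these data known. Other floors, folds, centring and the mean of a gene's probe sets were tried. The span centring, the floor on the mean and the inclusion of RAD51D and FAN1 were added after seeing the data.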

Additional observations from a re-analysis of the deposited data

Results flagged for a closer look

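RAD51C moved in opposite directions in the exposed culture and in the clone. Its log2 difference was -0.44 in ethanol against the untreated control and 1.25 in the clone against its own control. The difference between these values was not tested, since each rests on 2 arrays and they come from tables normalised separately.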

How the results depend on the processing

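No paired analysis was possible because each group had 1 array. Of 104 recomputed counts and medians, 94 stayed close to the reported value: a count within 1.5 times, or a median within 0.1 on the log2 scale. Most of the 104 belong to the exposure comparisons, where no member was 2-fold apart, so they say little about the clone. Most of the values that moved were in the clone. Averaging probe sets could change no member's value, since each was read by a single probe set. At 1.5-fold, FANCE made 1 member lower in ethanol and 1 higher in acetaldehyde than in ethanol. In the clone 11 of 21 members were 2-fold higher with a median of 1.06, beside 14.7% of all genes. Of the 21, 9 reached the floor only in the clone. With no floor the member median was 0.64. It was 1.40 with a floor of 2 times the table median, where 7 of 10 were higher, beside 17.4% of all genes. Most of those 7 reached that floor only in the clone. With dim values raised to the floor 7 of 21 were higher, beside 12% of all genes, and the median was 0.40. With the floor on the mean of both arrays 7 of 15 were higher, beside 13.8% of all genes, and the median was 0.57. Centred by class of gene span the median was 0.75. These last 2 settings were chosen after seeing the data. The settings with a floor or raised values test fewer members or shrink differences from dim controls by construction, and beyond that the cause was not tested. Dimness limits BRCA1, BRIP1, FANCF and RAD54B in the clone, whose controls lay under the floor and whose folds over it were under 2.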
